A study of Sus scrofa with 24 samples.

Results

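The growth hormone and IGF axis links the pituitary to growth through the liver. Growth hormone binds its receptor GHR on hepatocytes, the kinase JAK2 that is bound to the receptor phosphorylates STAT5B, and STAT5B switches on IGF1, the circulating growth factor, and IGFALS, the acid labile subunit that holds IGF1 and an IGF binding protein together in a large, long-lived blood complex. SOCS2 damps the receptor's signal, and androgens are known to act on growth hormone secretion, so that the axis is of interest where anabolic steroids are given to meat animals. Genes of this axis were described in liver RNAseq data, chosen by gene name from a list of 10: GHR, IGF1, IGFALS, IGFBP1, IGFBP2, IGFBP3, IGFBP4, SOCS2, STAT5B and JAK2. Of these, 3 were found among the 13463 genes of the tables used here, namely IGF1, IGFALS and JAK2. IGFALS and JAK2 were found by symbol, and IGF1 by its identifier, since its row carries no symbol. The receptor GHR, the binding proteins IGFBP1 to IGFBP4, SOCS2 and STAT5B were not analysed here.

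Livers came from 24 grower pigs, with 1 poly-A library per pig. In 8 pigs the neck muscle was injected with Sustanon (4 mg/kg), which is made of esters of testosterone, in another 8 with Myodin (5 mg/kg), an ester of nandrolone, and 8 pigs were controls. By label, the Sustanon group held 3 castrated boars, 3 sows and 2 uncastrated boars, the Myodin group 2, 3 and 3, and the control group 3, 3 and 2. The study calls these classes barrows, gilts and boars, and the sows had not yet had a litter. Castrated boars and sows are grouped below as animals without testes (6 Sustanon, 5 Myodin, 6 control), whereas uncastrated boars keep their testes, the main source of testosterone. How much testosterone each boar had in its blood was not analysed here. The pigs were crossbreds, each test group had its own pen and the controls stood in a separate room, so that treatment and housing cannot be told apart. The age of the pigs is not in the labels, and whether control pigs were given the oil vehicle is not stated.

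Total counts were between 9267780 and 14017276 per library, with a median of 10260005. The tissue label was checked on hepatocyte genes, and ALB, APOA1, TTR and SERPINA1 (the 4 found of 7 listed) together took between 78128 and 195650 CPM (counts scaled to a common library size). EIF1AY, a gene of the Y chromosome, went against the labelled class in 3 control libraries. It had 1 count in the library labelled control castrated boar 15, 476 in control sow 16 and 434 in control sow 18. These libraries were kept under their labels. They bear on every comparison with controls and on every comparison of classes. Fold changes without them are given for the 3 members in those comparisons, and for the pathway genes with a difference near or past the threshold. No value without all 3 is given for the treatment comparisons with class in the fit, or for the relations between members. Without them 0 of 8434 tested genes were called by edgeR in Sustanon against control (1199 at an unadjusted p under 0.05), 126 among animals without testes and 120 in uncastrated against castrated boars, so that a call missing in that fit of Sustanon against control is not particular to a gene.

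IGF1, on chromosome 5 (81762027 to 81909253 in Sscrofa11.1, by the RefSeq annotation), had a median level of 23.6 TPM (a transcript's share of its library, scaled by transcript length) over the 24 livers. This placed it at the 78.2 percentile of all genes in the table. IGFALS, on chromosome 3 (40173595 to 40177789), had a median of 46.2 TPM, at the 86.7 percentile. JAK2, on chromosome 1 (216849744 to 217002310), had a median of 5.97 TPM, at the 58.7 percentile. Per length, therefore, the carrier subunit was the most abundant of the 3 messengers and the receptor's kinase the least. Annotated loci of unknown function overlap each of the 3 genes, and how shared reads were counted is not stated, so that a part of each count could belong to a neighbour.

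The 3 genes differed in how much they varied from pig to pig. The coefficient of variation of CPM was 41.1% for IGF1 and 39.4% for IGFALS, and 11.8% for JAK2. IGF1 ran from 6.76 CPM (63 counts) to 36.2 CPM, and IGFALS from 24.7 CPM (353 counts in that library) to 99.9 CPM. JAK2 stayed between 14.1 and 21.5 CPM. In bulk tissue such as this, fewer cells of a type and less RNA per cell cannot be told apart.

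**Figure D1:**
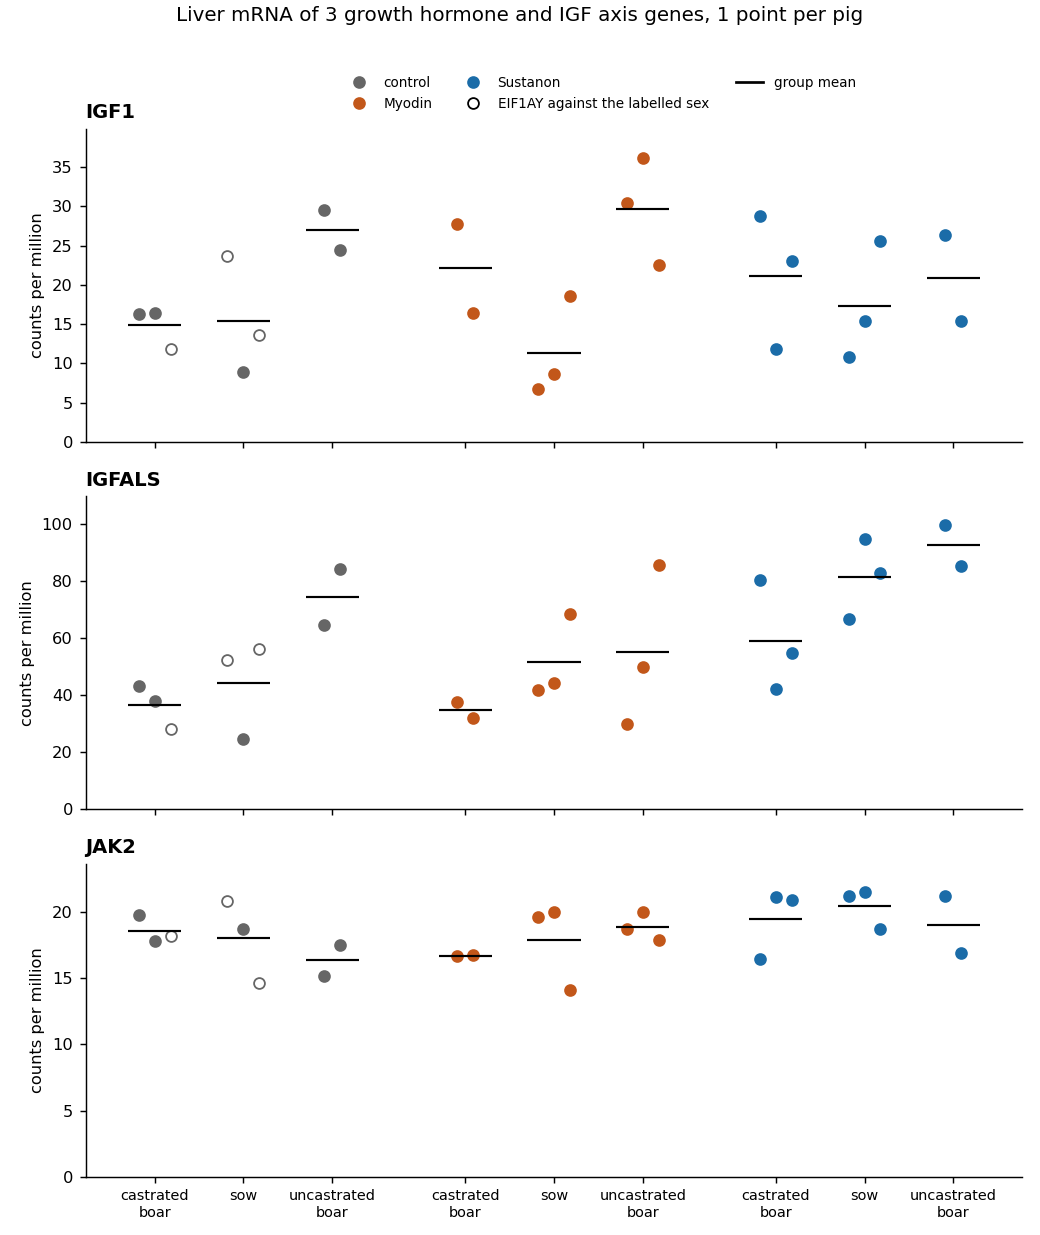
Level of IGF1, IGFALS and JAK2 in CPM (vertical axes from 0) for each of the 24 pigs, by treatment (colour) and class (horizontal axis); each point is 1 pig, black lines are group means, and open points are the 3 control libraries whose EIF1AY went against the labelled class. The IGFALS mean of Sustanon pigs is the highest of the 3 treatments in each class, IGF1 points of control and Myodin uncastrated boars lie high, and JAK2 points lie between 14.1 and 21.5.

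IGFALS was the member with the largest difference under Sustanon. Its level was 75.9 ± 19.8 CPM (SD, n = 8) with Sustanon, 49.0 ± 19.8 CPM (SD, n = 8) in controls and 48.8 ± 19.2 CPM (SD, n = 8) with Myodin. The Sustanon-treated pigs ranged from 42.2 to 99.9 CPM with a median of 81.6, the controls from 24.7 to 84.3 CPM with a median of 47.9, and the Myodin-treated pigs from 29.9 to 85.8 CPM with a median of 43.2. The groups overlapped, with 3 of 8 Sustanon pigs above every control and 7 of 8 above the control median. By edgeR, the log2 fold change of IGFALS for Sustanon against control was 0.63 ± 0.24 (SE), a 1.55-fold difference with a 95% interval of 0.14 to 1.13 (log2). The adjusted p was 0.133 (unadjusted p = 0.0147), so the difference did not pass the threshold of an adjusted p under 0.05. With the class of the pigs (castrated boar, sow, uncastrated boar) added to the fit, the log2 fold change was 0.66 ± 0.20 (SE) and the adjusted p by edgeR 0.0440, which passed it. With class in the fit the number of all genes called also rose, from 420 to 598 (7.22%). IGFALS also passed when control uncastrated boar 27 was left out (0.79, adjusted p = 0.04999 by edgeR), in a fit that called 459 of 8311 genes. Without the 3 control libraries whose EIF1AY went against the label, the value was 0.57 and the adjusted p 0.368, in the fit that called 0 of all genes.

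Within each class the mean of IGFALS was higher with Sustanon than in controls. In castrated boars the Sustanon pigs had 42.2, 54.8 and 80.5 CPM, and the controls 28.1, 38.0 and 43.4 CPM. In sows the Sustanon pigs had 66.9, 82.8 and 94.9 CPM, and the controls 24.7, 52.4 and 56.4 CPM. The 3 Sustanon sows thus lay above the 3 control sows, while the groups of castrated boars overlapped. EIF1AY went against the label in control sows 16 and 18 (52.4 and 56.4 CPM) and in control castrated boar 15 (28.1 CPM). Without them, the only control sow left had 24.7 CPM, and the control castrated boars left had 38.0 and 43.4 CPM. In uncastrated boars the Sustanon pigs had 85.4 and 99.9 CPM and the controls 64.8 and 84.3 CPM. These 4 animals did not overlap, with 84.3 and 85.4 CPM as the nearest values. What share of all genes separates groups this small was not computed, for sows or for uncastrated boars.

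Among animals without testes, IGFALS reached 70.4 ± 19.5 CPM under Sustanon (SD, n = 6), and the controls had 40.5 ± 12.7 CPM (SD, n = 6). All 6 Sustanon pigs lay above the control median and 4 of 6 above every control. This was a log2 fold change of 0.80 ± 0.25 (SE), with a 95% interval of 0.28 to 1.32 and an adjusted p of 0.0647 by edgeR, just outside the threshold. The same comparison passed it by DESeq2 (0.80, adjusted p = 0.0271) and by limma on the deposited log2 values (0.81, adjusted p = 0.0482), fits in which 4.69% (631 of 13463) and 4.72% (361 of 7654) of all genes were called, whereas without the 3 libraries named above the log2 fold change was 0.99 and the adjusted p 0.116. By edgeR it also passed when any 1 of 4 libraries was left out, with log2 fold changes of 0.79 to 0.91. These were Sustanon castrated boar 2, control sow 18, Myodin uncastrated boar 22 and Myodin uncastrated boar 24. In that order, 312, 429, 550 and 517 of all genes were called in these fits, against 459 with all libraries. The Myodin boars are in neither group compared. Without boar 22 the value was 0.79 ± 0.23 (SE) and without boar 24 it was 0.80 ± 0.23 (SE), so the SE changed more than the value. Across all settings tried, those with 1 library left out included, the IGFALS value in this comparison stayed between 0.69 and 0.99.

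Sustanon was also compared directly with Myodin, the other androgen ester, given at a different dose. The log2 fold change of IGFALS was 0.64 ± 0.24 (SE), with a 95% interval of 0.14 to 1.14 and an adjusted p of 0.168 by edgeR. Without the 3 libraries whose EIF1AY went against the label it was 0.64, with an adjusted p of 0.196 by edgeR. Those libraries are controls and in neither group of this comparison, so the value could scarcely move. With class in the fit the log2 fold change was 0.73 ± 0.20 (SE), with an adjusted p of 0.0373, and the number of all genes called went from 55 to 390 (4.71%). The doses and esters differ, so the 2 preparations were not compared at a matched dose. Sustanon against control and Sustanon against Myodin share the same 8 Sustanon libraries, and are not independent of each other.

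Myodin against control gave a log2 fold change of -0.01 ± 0.24 (SE) for IGFALS, with a 95% interval of -0.50 to 0.49. Among animals without testes the value was 0.15 ± 0.26 (SE), with an adjusted p of 0.880. These values were -0.06 and 0.35 without the 3 libraries whose EIF1AY went against the label, with adjusted p of 1 and 0.940. The Myodin sows had 42.0, 44.3 and 68.7 CPM, the Myodin castrated boars 32.0 and 37.7 CPM, and the Myodin uncastrated boars 29.9, 50.02 and 85.8 CPM. The 3 uncastrated boars were thus spread wider than the other Myodin pigs.

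By class, the mean of IGFALS was highest in uncastrated boars, and no class comparison passed the test by edgeR. The 7 uncastrated boars had 71.4 ± 24.5 CPM (SD), the 9 sows 59.2 ± 21.6 CPM (SD) and the 8 castrated boars 44.6 ± 16.6 CPM (SD). In a fit with treatment, the log2 fold change of uncastrated against castrated boars was 0.77 ± 0.21 (SE), with a 95% interval of 0.34 to 1.19 and an adjusted p of 0.0533 by edgeR (unadjusted p = 0.00112). Of the 7 uncastrated boars, 4 lay above every castrated boar and 6 above their median. By DESeq2, which called 2.75% of all genes (370 of 13463) where edgeR called 156 of 8279, the adjusted p was 0.0172, and by edgeR the call was also made when Sustanon castrated boar 1, Myodin sow 12, Myodin uncastrated boar 22 or control sow 17 was left out, with log2 fold changes of 0.77 to 0.86. All calls numbered 295 without Myodin uncastrated boar 22, and 146, 146 and 145 without Sustanon castrated boar 1, Myodin sow 12 and control sow 17. Without the 3 libraries whose EIF1AY went against the label, the value was 0.72 and the adjusted p 0.0975. Sows against castrated boars gave 0.44 ± 0.19 (SE), with an adjusted p of 0.479, and 0.36 without those libraries (adjusted p = 0.518).

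Among controls alone, both uncastrated boars (64.8 and 84.3 CPM) lay above all 6 animals without testes, which ranged from 24.7 to 56.4 CPM. Its log2 fold change was 0.88 ± 0.34 (SE), with an adjusted p of 0.212 by edgeR. It was 1.08 without the 3 libraries named above, with an adjusted p of 0.230. The share of all genes that part these control groups likewise was not computed. Since uncastrated boars keep their testes, it was asked whether the effect of each treatment differed between animals with and without testes. For Sustanon the difference of effects was -0.48 ± 0.49 (SE, log2), with a 95% interval of -1.51 to 0.54 and an adjusted p of 0.861. For Myodin it was -0.59 ± 0.47 (SE, log2), with an interval of -1.55 to 0.38 and an adjusted p of 0.641. Leaving out the 3 libraries gave -0.68 and -0.78. Single boars moved these values: the difference with Sustanon ran from -0.66 (without control uncastrated boar 25) to -0.28 (without control uncastrated boar 27), and that with Myodin from -1.05 (without Myodin uncastrated boar 24) to -0.27 (without Myodin uncastrated boar 22). With 2 or 3 uncastrated boars per treatment the intervals are wide, and hold both no difference and one as large as the treatment effect itself.

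Hepatocytes make both IGF1 and IGFALS, so the hepatocyte markers were set beside these values. Their summed level had a median of 156140 CPM with Sustanon (119480 to 195650), 145420 CPM in controls (101790 to 186900) and 126220 CPM with Myodin (78128 to 165250), and it had a median of 133090 CPM in uncastrated boars (78128 to 148050) against 144330 CPM in castrated boars (119480 to 195650). The 5 stellate and stromal markers found of 7 listed summed to a median of 297.0 CPM with Sustanon (203.2 to 466.7), 253.8 CPM in controls (151.5 to 388.2) and 195.6 CPM with Myodin (156.7 to 354.2). The 5 Kupffer cell and leukocyte markers found of 8 listed summed to a median of 933.6 CPM in uncastrated boars (761.2 to 1266.1), above the highest castrated boar, and 742.7 CPM in castrated boars (689.5 to 932.3). Red blood cell markers (3 of 4 found) had medians of 1632.6 CPM in controls, 1211.9 CPM with Sustanon and 967.8 CPM with Myodin, and bile duct markers (2 of 4 found) had medians of 15.7, 12.7 and 11.04 CPM, with overlapping ranges. By treatment the medians of the Kupffer cell and leukocyte markers were 813.7 CPM with Sustanon (689.5 to 938.9), 854.6 CPM in controls (710.8 to 992.2) and 850.9 CPM with Myodin (733.8 to 1266.1). Of the 22 marker genes of hepatocytes and other cell types that were tested, 0 were called by edgeR in Sustanon against control and 0 in uncastrated against castrated boars, where 5.07% and 1.88% of all tested genes were called, so that a count of 0 in 22 is near the background. The part of cell composition in the IGFALS result was not tested.

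IGF1 passed the test in none of the treatment comparisons by edgeR, DESeq2 or limma. Its level was 18.1 ± 7.08 CPM (SD, n = 8) in controls, 20.9 ± 10.3 CPM (SD, n = 8) with Myodin and 19.6 ± 7.06 CPM (SD, n = 8) with Sustanon. By edgeR, the difference was 0.12 ± 0.30 (SE, log2) for Sustanon, with a 95% interval of -0.50 to 0.74 and an adjusted p of 0.873. For Myodin it was 0.21 ± 0.30 (SE), with an interval of -0.41 to 0.83 and an adjusted p of 0.943. These intervals leave room for a difference of more than 1.5-fold in the upward direction. With 1 library left out, the Sustanon value ran from 0.017 (without Sustanon castrated boar 1) to 0.26 (without control uncastrated boar 25). The Myodin value ran from 0.057 (without Myodin uncastrated boar 23) to 0.36 (without control uncastrated boar 25). Among animals without testes, Sustanon gave 0.36 ± 0.31 (SE), with an adjusted p of 0.591, and Myodin gave 0.06 ± 0.32 (SE), with an adjusted p of 0.969. Sustanon against Myodin gave -0.09 ± 0.30 (SE), with an adjusted p of 0.902. The size of the IGF1 difference depended on the table. On the TPM scale IGF1 was 30.1 ± 11.6 TPM (SD, n = 8) with Sustanon, 23.3 ± 10.2 TPM (SD, n = 8) in controls and 26.8 ± 14.3 TPM (SD, n = 8) with Myodin. By limma on the deposited log2 values, Sustanon against control gave 0.37 ± 0.30 (SE), with an adjusted p of 0.599, and 0.60 ± 0.28 (SE) without testes, with an adjusted p of 0.268. Without the 3 libraries whose EIF1AY went against the label, Sustanon against control gave 0.04 by edgeR and 0.48 without testes, and Myodin against control gave 0.13 and 0.19.

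The order of IGF1 over the classes was not that of IGFALS. Uncastrated boars had the highest mean, with 26.4 ± 6.62 CPM (SD, n = 7), castrated boars had 19.04 ± 6.66 CPM (SD, n = 8) and sows the lowest, with 14.7 ± 6.75 CPM (SD, n = 9). For IGFALS it was the castrated boars that were lowest. The log2 fold change of IGF1 was 0.48 ± 0.27 (SE) for uncastrated against castrated boars, with an adjusted p of 0.362 by edgeR, and -0.37 ± 0.25 (SE) for sows against castrated boars, with an adjusted p of 0.662. No neighbours in this order therefore passed the test. Leaving out the 3 libraries gave 0.43 and -0.60, with adjusted p of 0.414 and 0.376, and by limma they were 0.66 and -0.24.

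Of the 7 uncastrated boars, the 2 controls had 24.4 and 29.5 CPM of IGF1 and the 3 Myodin-treated had 22.5, 30.4 and 36.2 CPM. The 2 treated with Sustanon had 15.4 and 26.3 CPM. In animals without testes the controls had 8.90 to 23.6 CPM, the Myodin group 6.76 to 27.8 CPM and the Sustanon group 10.8 to 28.7 CPM. Both control uncastrated boars were thus above all 6 controls without testes, with a log2 fold change of 0.84 ± 0.41 (SE), a 95% interval of -0.02 to 1.69 and an adjusted p of 0.350 by edgeR. This value was 0.97 without the 3 libraries (adjusted p = 0.417). Here too, the share of all genes with such a separation was not computed. The highest of the controls without testes was sow 16, and the lowest sow 17, with 8.90 CPM. The difference of the Sustanon effect between animals with and without testes was -0.73 ± 0.61 (SE, log2), with an adjusted p of 0.835, and that of the Myodin effect was 0.08 ± 0.57 (SE, log2), with an adjusted p of 0.972. These were -0.85 and -0.048 without the 3 libraries. The difference with Sustanon was -1.17 without Sustanon uncastrated boar 19 and -0.39 without Sustanon uncastrated boar 20, the only 2 boars of that group.

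JAK2, the kinase through which the growth hormone receptor signals, varied least. It had 17.8 ± 2.09 CPM (SD, n = 8) in controls, 17.98 ± 2.07 CPM (SD, n = 8) with Myodin and 19.8 ± 2.11 CPM (SD, n = 8) with Sustanon. Of the Sustanon pigs, 5 of 8 lay above every control, between 21.0 and 21.5 CPM, and the other 3 had 16.4, 16.9 and 18.7 CPM. The log2 fold change was 0.15 ± 0.09 (SE) for Sustanon, with a 95% interval of -0.04 to 0.34 and an adjusted p of 0.413 by edgeR, and 0.01 ± 0.09 (SE) for Myodin, with an interval of -0.18 to 0.20 and an adjusted p of 0.998. Sustanon against Myodin gave 0.14 ± 0.09 (SE), with an adjusted p of 0.447. The narrow intervals of JAK2 bound the treatment differences more closely than those of the other 2 genes.

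JAK2 had nearly the same level in the 3 classes. Castrated boars had 18.5 ± 1.92 CPM (SD, n = 8), sows 18.8 ± 2.71 CPM (SD, n = 9) and uncastrated boars 18.2 ± 2.002 CPM (SD, n = 7). The log2 fold change of uncastrated against castrated boars was -0.01 ± 0.10 (SE), with an interval of -0.22 to 0.20, and that of sows against castrated boars 0.03 ± 0.09 (SE). Among animals without testes the value was 0.12 ± 0.11 (SE) for Sustanon and -0.07 ± 0.11 (SE) for Myodin. Control uncastrated boars differed from controls without testes by -0.16 ± 0.15 (SE), and the adjusted p was 0.663. The difference of effects between animals with and without testes was 0.10 ± 0.22 (SE) for Sustanon and 0.28 ± 0.21 (SE) for Myodin, with adjusted p of 0.942 and 0.605. In the fit without the 3 libraries whose EIF1AY went against the label, JAK2 gave 0.14 for Sustanon against control and 0.012 for Myodin against control, and 0.083 and -0.11 among animals without testes. It gave -0.20 for control uncastrated boars against controls without testes, 0.0012 for uncastrated and 0.053 for sows against castrated boars, and 0.14 and 0.32 for the differences of effects, with none called.

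**Figure D2:**
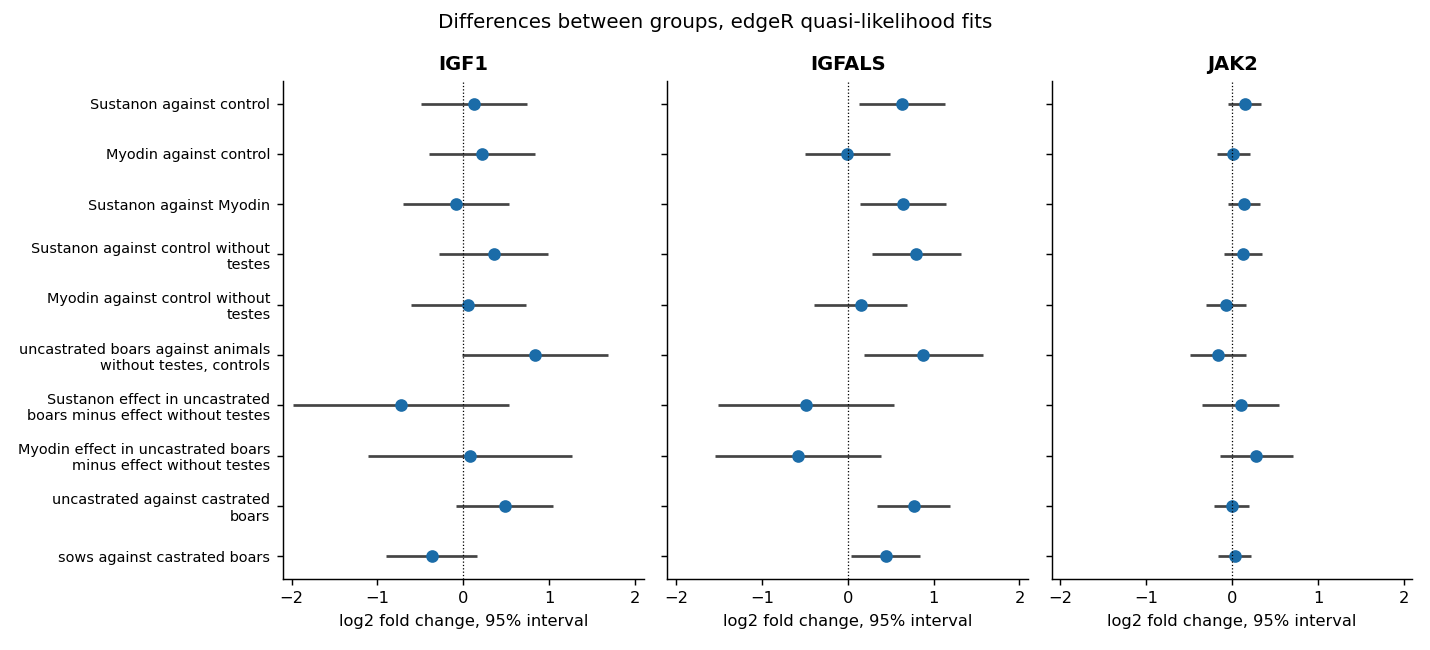
Log2 fold changes (points) with 95% intervals (lines) of IGF1, IGFALS and JAK2 in 10 comparisons, by edgeR; the dotted line marks no difference. The IGFALS intervals lie above 0 before adjustment in 6 comparisons (Sustanon against control in all animals and without testes, Sustanon against Myodin, control uncastrated boars against controls without testes, and uncastrated boars and sows against castrated boars), those of JAK2 are the narrowest, and 0 of the 30 values passed the adjusted threshold.

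Across the 10 comparisons, then, 0 of the 3 members were called by edgeR at an adjusted p under 0.05. At an unadjusted p under 0.05, 1 member, IGFALS, passed in 6 of them: Sustanon against control, Sustanon against Myodin, Sustanon against control without testes, control uncastrated boars against controls without testes, uncastrated against castrated boars and sows against castrated boars. In these 6 comparisons, in that order, 19.6%, 18.1%, 19.3%, 14.7%, 17.9% and 9.86% of all tested genes also had an unadjusted p under 0.05. By DESeq2, IGFALS was called in Sustanon against control without testes and in uncastrated against castrated boars, and by limma in the former, with the shares of all genes given above for those fits. The background, as the share of the 8279 tested genes called in the same fit, was 5.07% for Sustanon against control, 0.664% for Sustanon against Myodin and 5.54% for Sustanon against control without testes. It was 1.88% for uncastrated against castrated boars and 1.63% for control uncastrated boars against controls without testes. For Myodin against control it was 0% (597 genes at an unadjusted p under 0.05, and 1 gene called by DESeq2 and 0 by limma), and without testes 0.0966%. For sows against castrated boars it was 0% (816 genes at an unadjusted p under 0.05, and 21 genes called by DESeq2 and 0 by limma). For the differences of effects it was 0.0362% with Sustanon and 0.109% with Myodin. Against shares this low, 0 of 3 members is no departure from the other genes.

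IGF1 and IGFALS are both targets of growth hormone signalling, and it was asked whether they varied together over the pigs. Over the 24 livers Pearson's r of their log2 CPM was 0.35 (permutation p = 0.0925, 0.185 adjusted over 2 pairs) and Spearman's rho 0.23 (permutation p = 0.272, adjusted p = 0.320). Without the 2 libraries farthest from the median of IGF1, Myodin sow 10 and Myodin uncastrated boar 23, r was 0.37. After the mean of each cell of treatment and testes had been subtracted, r was 0.22 (permutation p = 0.305, adjusted p = 0.305). On the deposited log2 values r was 0.55 (permutation p = 0.00662, adjusted p = 0.0132), so that this relation passed the threshold on the deposited log2 values and not on log2 CPM. IGF1 and JAK2 gave an r of -0.18 (permutation p = 0.393, adjusted p = 0.393) and a rho of -0.21 (permutation p = 0.320, adjusted p = 0.320), and an r of 0.07 on the deposited log2 values.

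Within the treatments, the relation of IGF1 to IGFALS had an r of 0.84 in the 8 controls (exact permutation p = 0.0102), 0.44 in the 8 Sustanon pigs (exact permutation p = 0.275) and 0.03 in the 8 Myodin pigs (exact permutation p = 0.946). In the controls rho was 0.81, and r was 0.74 without the 2 libraries farthest from the median of IGF1. The 8 controls include 2 uncastrated boars, which had the highest IGF1 and the highest IGFALS of the controls. The r in controls therefore also holds the difference between controls with and without testes. In animals without testes r was 0.43 (n = 17, permutation p = 0.0890), and in the 7 uncastrated boars it was -0.58 (exact permutation p = 0.186). These subsets were chosen after the data had been seen, and over the 10 relations computed in them the smallest adjusted p was 0.102. In the Myodin group the highest levels of IGF1 (36.2 and 30.4 CPM, in uncastrated boars) stood beside 50.02 and 29.9 CPM of IGFALS, and its lowest (6.76 CPM, in a sow) beside 42.0 CPM.

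**Figure D3:**
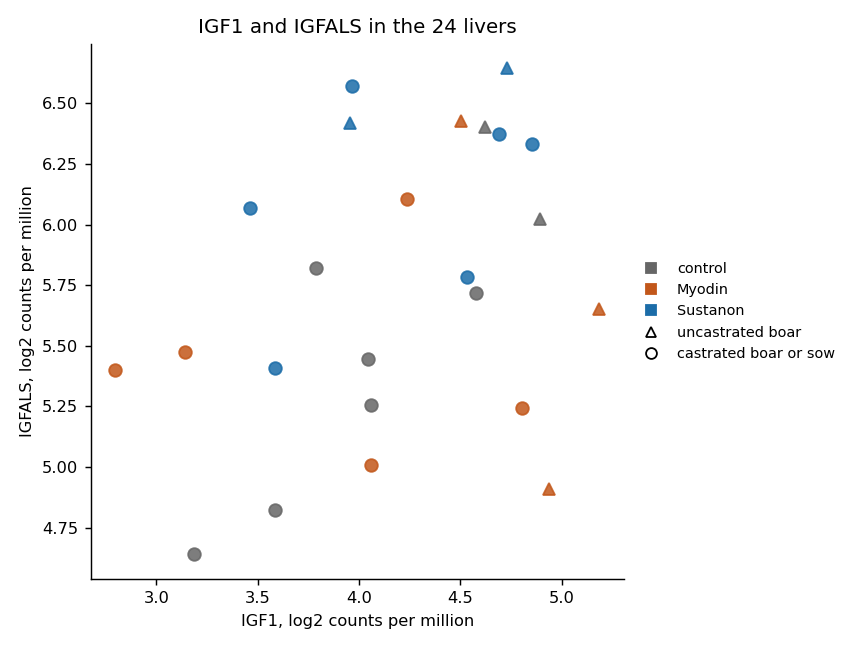
IGFALS against IGF1, both in log2 CPM, with 1 point per pig, coloured by treatment; triangles are uncastrated boars and circles castrated boars or sows. Over the 24 pigs r was 0.35. Grey control points with more IGF1 tended to have more IGFALS (r = 0.84), whereas orange Myodin points did not (r = 0.03). These subsets were chosen after the data had been seen, and their smallest adjusted permutation p was 0.102.

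The other genes of the pathway came from a list of 47 genes, of which 21 were found and 20 tested. In Sustanon against control 1 of 20 was called higher and 0 lower by edgeR, a share near the 5.07% called among all tested genes, with a median log2 fold change of 0.06 over the 20 genes against -0.01 over all tested genes. The gene called was JAK1, a kinase of the same family as JAK2 that serves cytokine receptors. JAK1 ranged from 196.7 to 311.8 CPM with Sustanon (median 264.9), from 140.1 to 229.9 CPM in controls (median 197.9) and from 200.7 to 303.4 CPM with Myodin (median 212.7). Of the Sustanon pigs, 6 of 8 were above every control, and 4 of 8 controls were below every Sustanon pig. JAK1 rose by 0.39 ± 0.11 (SE, log2), with an adjusted p of 0.0368 by edgeR. The call was kept in 14 of the 24 fits that left out 1 library, with log2 fold changes of 0.33 to 0.44, and it was lost without Sustanon castrated boar 2, Sustanon sow 5 or 6, Sustanon uncastrated boar 19 or 20, control castrated boar 14 or 15, control sow 17 or 18 or control uncastrated boar 27 (highest adjusted p = 0.0954). Among the kept calls are those of the fits without a Myodin pig, a group outside this comparison. Without the 3 libraries whose EIF1AY went against the label, the value was 0.34 and the adjusted p 0.180, with 0 of all genes called in that fit. The call was also lost by limma (0.39, adjusted p = 0.0639) and without a count filter (0.38, adjusted p = 0.0600).

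Among the ligand and receptor genes, IGF1R, IGF2R and INSR were tested, and 0 of 3 were called. IGF2R, which takes up and clears IGF2 and sorts lysosomal enzymes, had 162.2 ± 40.1 CPM under Sustanon (SD, n = 8), where the controls had 118.6 ± 16.8 CPM (SD, n = 8), with a log2 fold change of 0.45 ± 0.14 (SE) and an adjusted p of 0.0552. Of the 8 Sustanon pigs, 5 were above every control and 1 was below every control. With the 3 libraries left out, IGF2R gave 0.45 with an adjusted p of 0.187. IGF1R, the signalling receptor of IGF1, had 4.24 ± 1.81 CPM (SD, n = 8) in controls and 3.82 ± 0.85 CPM (SD, n = 8) with Sustanon, and INSR, the insulin receptor, had 38.0 ± 13.03 and 36.1 ± 7.31 CPM. Neither passed the test.

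Of 8 inhibitors of the pathway tested, 0 were called in Sustanon against control. SOCS1, which blocks Janus kinases, had 8.49 ± 2.91 CPM under Sustanon (SD, n = 8), where the controls had 14.3 ± 4.67 CPM (SD, n = 8), with a log2 fold change of -0.75 ± 0.24 (SE) and an adjusted p of 0.0633 by edgeR. Of the 8 controls, 5 were above every Sustanon pig. SOCS1 had 8.54 ± 2.32 CPM (SD, n = 7) in uncastrated boars and 13.2 ± 3.64 CPM (SD, n = 8) in castrated boars, with a log2 fold change of -0.64 ± 0.22 (SE) and an adjusted p of 0.124. With the 3 libraries left out, the values of SOCS1 were -0.71 (adjusted p = 0.224) and -0.68 (adjusted p = 0.114). The other inhibitors (SOCS4, SOCS5, SOCS6, PTPN2, PTPN6, LEPROT and GRB10) had log2 fold changes between -0.13 and 0.22 with Sustanon. The kinase and transcription factor genes other than JAK1 (SH2B1, TYK2 and ONECUT1) had log2 fold changes between -0.02 and 0.47, and SHC1 and AKT2, which signal below the receptors, had -0.02 and 0.09.

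In uncastrated against castrated boars, 1 of the 20 genes was called lower and 0 higher by edgeR, where 1.88% of all tested genes were called, with a median log2 fold change of 0.06 against 0.02 over all tested genes. It was PAPPA2, a protease that cuts IGF binding proteins and so frees IGF1. PAPPA2 was low in these livers, with 1.54 ± 0.69 CPM (SD, n = 7) in uncastrated boars (9 to 36 counts), 3.58 ± 1.61 CPM (SD, n = 8) in castrated boars (20 to 70 counts) and 2.51 ± 0.95 CPM (SD, n = 9) in sows. Of the uncastrated boars, 5 of 7 were below every castrated boar. PAPPA2 fell by 1.27 ± 0.32 (SE, log2), with an adjusted p of 0.0366 by edgeR. The call was kept in 16 of the 24 fits that left out 1 library, with log2 fold changes of -1.46 to -1.07, and was lost without Sustanon castrated boar 3, Sustanon uncastrated boar 19 or 20, Myodin castrated boar 8, Myodin uncastrated boar 23 or 24, control castrated boar 13 or control uncastrated boar 27 (highest adjusted p = 0.0972). Without the 3 libraries whose EIF1AY went against the label the value was -1.36 and the adjusted p 0.0370. PAPPA2 was not tested by limma, since its mean deposited log2 value was under the minimum of 1. The other binding protein genes tested, IGFBP6 and IGFBP7, had log2 fold changes of 0.49 ± 0.34 (SE) and 0.23 ± 0.11 (SE) and did not pass.

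In the other 8 comparisons, 0 of the 20 genes were called by edgeR. At an unadjusted p under 0.05, 6 of 20 passed in Sustanon against control (19.6% of all tested genes) and 6 in uncastrated against castrated boars (17.9%). At the same threshold, 2 of 20 passed in Myodin against control (7.21% of all tested genes), 2 in Sustanon against Myodin (18.1%), 5 in Sustanon against control without testes (19.3%) and 0 in Myodin against control without testes (10.3%). In control uncastrated boars against controls without testes (14.7%), in sows against castrated boars (9.86%) and in the differences of effects with Sustanon (6.96%) and Myodin (11.9%), 1 of 20 passed in each. These counts are too small to set the list apart from all genes.

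**Figure D4:**
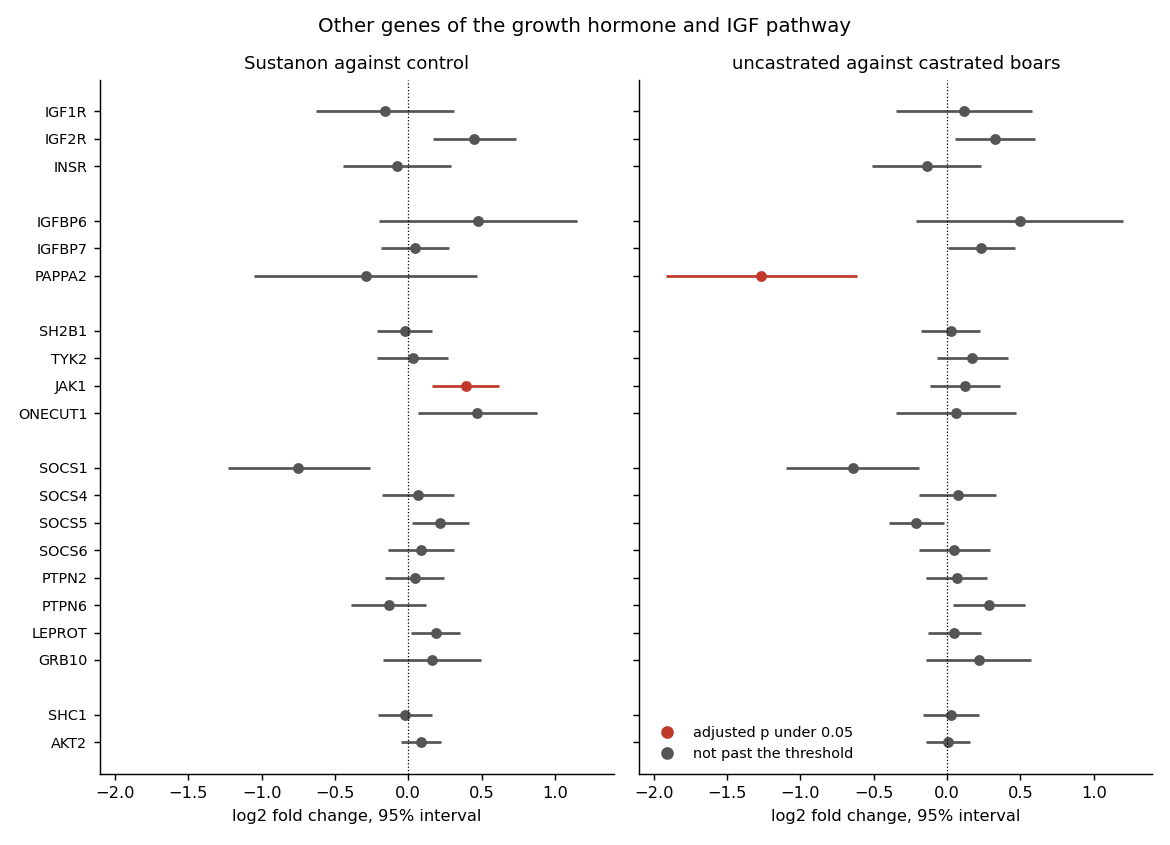
Log2 fold changes (points) with 95% intervals (lines) of 20 other genes of the pathway, in Sustanon against control (left) and uncastrated against castrated boars (right), by edgeR; from top to bottom the genes are receptors, binding proteins and proteases, kinases and transcription factors, inhibitors, and signalling below the receptors. Red marks an adjusted p under 0.05, which holds for JAK1 on the left and PAPPA2 on the right.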

How the data were processed

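Libraries were made by the authors from poly-A RNA with a stranded kit. Reads were trimmed with Skewer and aligned with STAR 2.5 to Sscrofa11.1, per the study's methods and the submitters' processing notes. The authors deposited raw counts per gene, without normalization, and the same libraries as log2(TPM + 1) values. The counting tool, and whether it used strand, are not given in the sources used here. All columns carried the label of a sample; that of Sustanon sow 6 also had the number of another class, and the sample label was followed.

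Of 13463 rows, 3779 had no symbol, and 9564 identifiers had a name in the reference table, which gave IGF1. In R 4.3.3, counts passed filterByExpr by treatment (8279 genes), were scaled by TMM and tested two-sided with edgeR 4.0.16 (quasi-likelihood), with Benjamini-Hochberg adjustment over all tested genes. All 24 libraries entered 1 fit of the treatments, of the 6 cells of treatment and testes, or of treatment and class. A call is an adjusted p under 0.05. The study names DESeq2, which was an alternative here (1.42.0), as were limma 3.58.1 on the deposited log2 values of genes with a mean of at least 1, RLE scaling, no filter, class as a covariate, a fit of 9 cells, libraries left out, and an added minimum of 1 for the absolute log2 fold change, which the study used. Log2 CPM had a prior count of 2, and permutation tests of relations drew 100000 resamples, or took all orders where n was under 10. The fits were tested on simulated data, the outcome of which is not given here. Intervals are 95%. By the study's methods, the pigs went to the same slaughter facility at the end of the experiment, and tissue was then collected. No grouping of livers within that sampling is given in the sources used here, and each library is 1 animal.

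Every member found was named, as was each gene of the wider list that passed the threshold. IGF2R and SOCS1, and the genes given by range, were chosen after their values had been seen. The members and lists were chosen with earlier results of these data known.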

Additional observations from a re-analysis of the deposited data

How the results depend on the processing

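Of the member fold changes under the alternative settings, 217 of 234 kept their direction and their side of the threshold. Of the rest, 5 passed it newly, all for IGFALS, and 12 changed sign. With each library left out in turn, 676 of 720 kept direction and side, 9 passed newly and 35 changed sign. In the fits of treatments or of cells, a library outside the groups compared acts only through shared scaling, filter and spread. Such fold changes, which are part of the 720, could scarcely move. The fit without the control castrated boar whose EIF1AY went against the label is in both counts. The count of members called went from 0 to 1 with class as a covariate (Sustanon against control, Sustanon against Myodin), by DESeq2 (Sustanon against control without testes, uncastrated against castrated boars) and by limma (Sustanon against control without testes). With class as a covariate the calls over all genes went from 420 to 598 and from 55 to 390, by DESeq2 from 459 to 631 and from 156 to 370, and by limma from 459 to 361. With 1 library left out it was 0 to 1 in Sustanon against control (1 without control uncastrated boar 27, adjusted p = 0.04999), in Sustanon against control without testes and in uncastrated against castrated boars. In the fits with 1 member called, the calls over all genes were 459, 312 to 550 and 145 to 295, in that order. With all libraries they were 420, 459 and 156. An added minimum log2 fold change of 1 can only remove calls, so the count of members called stayed at 0 by construction. That setting reuses the main fit, so its member fold changes are among the 217 by construction too.

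The sign changes were as follows. By limma JAK2 was -0.032 in Myodin against control, 0.045 in control uncastrated boars against controls without testes, -0.02 for the difference of Sustanon effects and 0.052 in uncastrated against castrated boars, and IGF1 was 0.24 in Sustanon against Myodin and -0.018 for the difference of Myodin effects. IGF1 in Sustanon against Myodin was 0.070 with class as a covariate. IGFALS in Myodin against control was 0.0069 without a filter and 8.02e-04 by DESeq2. Without control castrated boar 15, IGF1 in Myodin against control without testes was -0.0015. Without the 3 libraries whose EIF1AY went against the label, IGF1 was -0.048 for the difference of Myodin effects and JAK2 0.0012 in uncastrated against castrated boars. The cause was not tested.

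With 1 library left out, IGF1 ranged from -0.25 to 0.25 in Myodin against control without testes, from -0.11 to 0.39 for the difference of Myodin effects and from -0.22 to 0.067 in Sustanon against Myodin. IGFALS ranged from -0.17 to 0.15 in Myodin against control and from -0.044 to 0.28 without testes. JAK2 ranged from -0.016 to 0.065 in Myodin against control, from -0.13 to 0.0026 without testes, from -0.077 to 0.25 for the difference of Sustanon effects, from -0.011 to 0.063 in sows against castrated boars and from -0.052 to 0.032 in uncastrated against castrated boars.

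The r of IGF1 with IGFALS was 0.55 on the deposited log2 values, past the threshold, and that of IGF1 with JAK2 turned to 0.070. No paired analysis was possible because each animal number belongs to 1 group only. Groups of 2 or 3 pigs limit what the comparisons with uncastrated boars can detect.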
